A study of Mus musculus with 6 samples.

Results

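The KEAP1-NRF2 antioxidant response genes described here are 10 mouse genes, Keap1, Nfe2l2, Hmox1, Nqo1, Gclc, Gclm, Txnrd1, Srxn1, Slc7a11 and Gsr. They were taken by name from the 54532 genes listed in each library, and all 10 were found under their GENCODE M21 symbols. RNA was sequenced in 6 libraries of iBMDMs, bone marrow-derived macrophages of wild-type mice made to grow as a line with the oncogenes v-raf and v-myc. The 3 Control libraries came from cells carrying shControl and the 3 PGAM5 KD libraries from cells carrying shPGAM5, both delivered by lentivirus, and all cells received LPS at 100 ng/ml for 4 hours. No library of untreated cells was analysed here, so the comparison is between LPS-treated groups and gives no induction by LPS. Whether the 3 libraries of a group were separate infections or cultures is not given in the sources used here, and p-values then measure only the spread between these libraries, which may be technical.

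KEAP1 is an adaptor of a CUL3 ubiquitin ligase that keeps the transcription factor NRF2, the product of Nfe2l2, at a low level in resting cells. When oxidants or electrophiles modify KEAP1, NRF2 accumulates, pairs with a small MAF protein and binds antioxidant response elements (AREs) near genes for glutathione synthesis, thioredoxin recycling, quinone reduction and heme breakdown. In macrophages this program limits oxidative stress and restrains inflammatory gene expression. PGAM5, a phosphatase of the outer mitochondrial membrane, is itself a known binding partner of KEAP1.

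Expression is given as FPKM, the fragments on a gene scaled to its exon length and to the depth of the library, so levels of different genes can be set side by side. The number of fragments behind these values was between 18163464 and 24388917 per library. Pgam5 was at 17.1, 12.97 and 13.4 FPKM in the Control libraries and at 4.33, 5.75 and 4.53 FPKM in the PGAM5 KD libraries, a log2 fold change of -1.40 (standard error 0.13, limma adjusted p = 0.000358). Macrophage markers were present in every library, 7 of 8 at a mean of at least 1 FPKM with Mertk at 0, and they moved in both directions. Lyz2 (log2 fold change -0.40), Cd68 (-0.20) and Csf1r (-0.64) were called lower, and Fcgr1 (1.51), Adgre1 (0.85), Itgam (0.68) and Cd14 (0.56) were called higher in PGAM5 KD cells. Their summed level, in which Lyz2 weighs most, ranged from 2802 to 2894 FPKM in Control and from 2526 to 2544 FPKM in PGAM5 KD libraries. The part of these marker changes in the results below was not tested. Markers of other cells stayed near 0. The highest sum in a library was 0.568 FPKM for neutrophil markers (6 of 8 at 0 in all libraries), 0.0168 FPKM for fibroblast markers (4 of 6 at 0), 0.211 FPKM for lymphocyte markers (4 of 6 at 0) and 0.379 FPKM for erythroid markers (2 of 5 at 0). As these are bulk libraries, fewer cells with an mRNA and less of it per cell cannot be told apart.

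Most of the 10 genes were lower in PGAM5 KD than in Control iBMDMs. Slc7a11, Txnrd1, Nfe2l2, Gclc, Srxn1 and Gclm fell to between 52.5% and 77.6% of their Control level, while Keap1, Gsr and Hmox1 did not pass the test. Nqo1 was too low for the test as set and is described separately. In numbers, 9 of the 10 genes passed the filter of a mean of at least 1 FPKM over the 6 libraries, 6 of these 9 were lower at an adjusted p-value under 0.05 (limma on log2(FPKM + 1), adjusted over all 10540 genes tested) and 0 were higher. Over all genes tested, 14.9% were called lower and 16.8% were called higher. None of the 9 genes passed an absolute log2 fold change of 1, which 1.32% of all genes did together with the adjusted p-value. Of the 9 tested genes, 6 were lower in every PGAM5 KD library than in every Control library, 3 overlapped and 0 were higher without overlap, against 22.9% of the genes tested that were lower and 24.2% that were higher in this way. The median log2 fold change of the 9 genes was -0.43, and that of all genes tested was 0.01. The FPKM summed over all genes was higher in PGAM5 KD (317936 to 324298) than in Control libraries (304393 to 304889). Scaling each library to the same sum (TPM) moved the calls over all genes from 1771 higher and 1575 lower to 1088 higher and 2282 lower, and left all 6 genes lower, against 21.7% of all genes called lower on that scale.

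**Figure D1:**
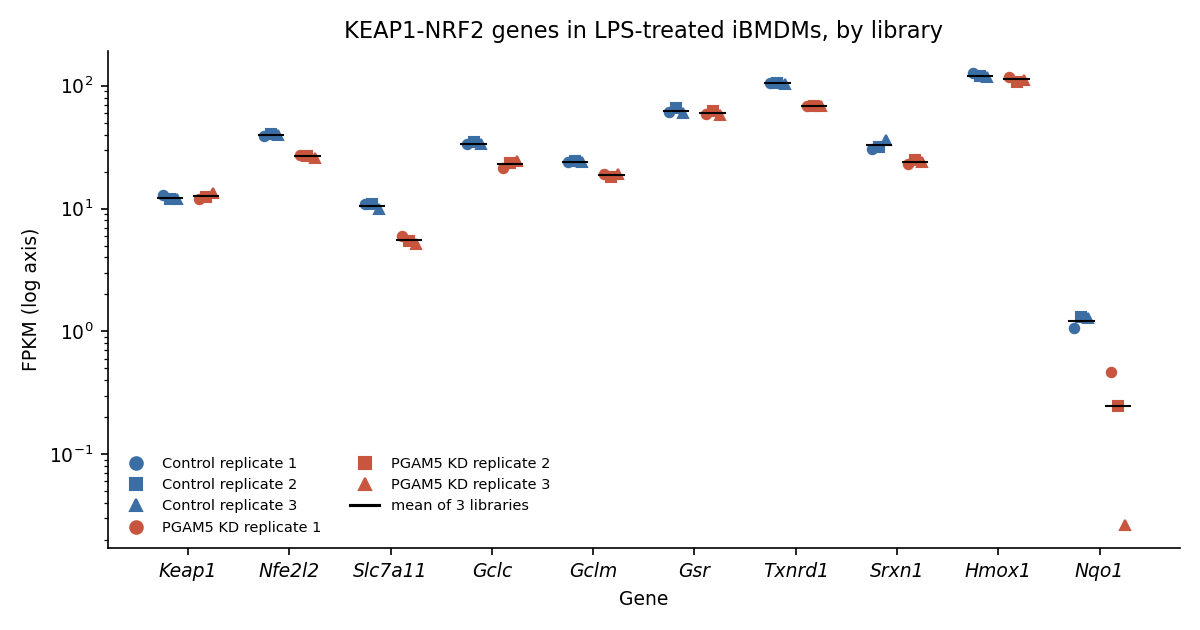
FPKM of the 10 genes (log axis) in each library, with 3 Control libraries in blue, 3 PGAM5 KD libraries in red and a line at the mean of each group. The groups do not overlap for Nfe2l2, Slc7a11, Gclc, Gclm, Txnrd1, Srxn1 and Nqo1, and they overlap for Keap1, Gsr and Hmox1.

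To show the letters that NRF2 is known to read, promoter windows from RefSeq (GRCm38.p6, 250 bases before to 50 after an annotated start) were searched for the ARE core TGANNNNGC on both strands. Windows were given for 7 of the 10 genes (9 windows in all, 3 of them for Txnrd1), and not for Hmox1, Gclc and Gsr. The core was found in windows of 6 of these 7 genes, that of Nqo1 being without it. Counted by window, 7 of the 9 held it, the first Txnrd1 window being without it too. The same letters occur in 41.3% of all 32851 windows, so a match is common and describes the sequence only. The narrower form TGACNNNGC was in windows of 4 genes (Nfe2l2, Gclm, Txnrd1 and Srxn1), that is in 4 of the 9 windows, and in 12.4% of all windows. Bases -250 to -31 before the start, counted from 0 at the start base, are printed for the 5 of the lowered genes that have a window, 5′ to 3′ on the strand of the gene with the ARE core in capitals.
Srxn1, chr2:152105274-152105493, plus strand: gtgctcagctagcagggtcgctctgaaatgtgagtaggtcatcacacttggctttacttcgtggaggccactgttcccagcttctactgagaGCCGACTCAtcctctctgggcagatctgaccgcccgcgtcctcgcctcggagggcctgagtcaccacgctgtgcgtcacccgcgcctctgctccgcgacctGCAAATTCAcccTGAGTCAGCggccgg
Gclm, chr3:122245307-122245526, plus strand: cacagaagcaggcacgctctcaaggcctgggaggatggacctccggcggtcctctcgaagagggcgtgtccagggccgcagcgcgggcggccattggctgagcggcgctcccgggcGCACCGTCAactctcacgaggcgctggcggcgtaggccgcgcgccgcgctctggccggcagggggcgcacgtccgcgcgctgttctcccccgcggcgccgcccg
Slc7a11, chr3:50443644-50443863, minus strand: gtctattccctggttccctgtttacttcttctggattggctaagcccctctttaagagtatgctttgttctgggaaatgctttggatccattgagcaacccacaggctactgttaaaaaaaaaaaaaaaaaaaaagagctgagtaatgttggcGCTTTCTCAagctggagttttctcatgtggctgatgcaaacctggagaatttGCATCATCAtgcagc
Txnrd1, chr10:82858956-82859175, plus strand: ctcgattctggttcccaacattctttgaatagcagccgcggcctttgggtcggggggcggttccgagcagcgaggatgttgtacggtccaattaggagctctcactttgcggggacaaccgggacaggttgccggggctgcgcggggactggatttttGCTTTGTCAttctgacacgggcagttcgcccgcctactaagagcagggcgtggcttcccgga
Nfe2l2, chr2:75704694-75704913, minus strand: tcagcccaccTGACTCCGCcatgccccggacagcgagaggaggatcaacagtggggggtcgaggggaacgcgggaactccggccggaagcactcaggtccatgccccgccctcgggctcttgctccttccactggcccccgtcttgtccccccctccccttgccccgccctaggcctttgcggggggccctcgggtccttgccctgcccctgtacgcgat

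Srxn1 held the most core matches, 4 in its window, of which 3 are in the printed stretch and 1 lies at positions 28 to 36 after the start. Its match at -45 to -37 reads TGAGTCAGC, and its first 7 letters also fit TGANTCA, the palindrome read by AP-1 factors. Of the 7 genes with a window, Srxn1 alone held TGANTCA, which occurs in 7.81% of all windows. A further TGANTCA match in Srxn1, at -102 to -96, lies outside the ARE core and is printed in lower case. In Slc7a11 the core lies at -97 to -89, at -45 to -37 and at 41 to 49, in Gclm at -134 to -126, and in Nfe2l2 at -240 to -232. The second of the Txnrd1 windows, printed above, holds it at -92 to -84, and the third, which is not printed, at -84 to -76. The window of Keap1, whose mRNA did not pass the test, holds it too, at -61 to -53.

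The mRNAs of the sensor and of the transcription factor of the pathway did not change together. Their protein was not measured in these libraries. Nfe2l2 (ENSMUSG00000015839, minus strand of chromosome 2 from 75675513 to 75704641, GRCm38) encodes NRF2, and was at 39.1, 40.6 and 39.6 FPKM in the Control libraries and at 27.3, 26.6 and 26.0 FPKM in the PGAM5 KD libraries. All PGAM5 KD libraries lay below all Control libraries, with between 1831 and 3108 fragments in each. The mean fell from 39.7 ± 0.756 to 26.6 ± 0.664 FPKM (SD, n = 3 each), which is 67.0% of Control, a log2 fold change of -0.56 (95% confidence interval -0.65 to -0.47, limma adjusted p = 9.44e-05). Keap1 (ENSMUSG00000003308, minus strand of chromosome 9 from 21229730 to 21239361) was at 12.9, 11.9 and 12.1 FPKM in Control and at 12, 12.4 and 13.4 FPKM in PGAM5 KD libraries. The libraries of the groups overlapped. The log2 fold change of 0.03 had an interval from -0.10 to 0.17 (limma adjusted p = 0.712), so a rise or fall larger than these bounds lies outside the interval. Its sign turned to -0.04 on the TPM scale. Keap1 shares 510 bases of exon with an antisense gene, Gm16754, but at least 96.7% of the fragments on the pair were on Keap1. The ratio of Nfe2l2 to Keap1 within a library, which does not depend on scaling between libraries, was 3.04, 3.40 and 3.28 in Control and 2.28, 2.15 and 1.94 in PGAM5 KD libraries. This ratio differed by -0.61 (standard error 0.08) on the log2 scale without overlap, and the exact two-sided permutation test gave p = 0.1, the smallest that 3 libraries against 3 allow (0.1 also after adjustment over 5 ratios).

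Slc7a11, Gclc and Gclm, which supply cystine and carry out the first step in making glutathione, the main soluble thiol of the cell, were lower. Slc7a11 (ENSMUSG00000027737, minus strand of chromosome 3 from 49892526 to 50443614) encodes xCT, the transporter that brings in cystine in exchange for glutamate. Its level was 10.8, 10.9 and 9.86 FPKM in Control and 5.95, 5.44 and 5.18 FPKM in PGAM5 KD libraries. This was the largest change among the 9 tested genes, with a log2 fold change of -0.82 (95% confidence interval -0.98 to -0.66, limma adjusted p = 0.000217), and no libraries of the groups overlapped. The longest coding transcript of Slc7a11 holds 585 bases that are 92.5% identical to Tuba1b, a tubulin gene whose own level was 531.6, 545.0 and 546.6 FPKM in Control and 270.2, 311.5 and 285.2 FPKM in PGAM5 KD libraries. Tuba1c, another similar tubulin gene, was between 206.1 and 214.2 FPKM in Control and between 256.8 and 286.8 FPKM in PGAM5 KD libraries. Between 1375 and 3052 fragments per library were counted on Slc7a11, and the part of misplaced tubulin fragments in its change was not tested. Over Slc7a11 and all 19 genes that resemble it, Slc7a11 held between 5.49% and 9.05% of the fragments, and the summed fragments differed by -0.38 on the log2 scale (standard error 0.04). Slc3a2 encodes the heavy chain that carries xCT to the membrane. It was at 49.4 ± 0.77 FPKM in Control and at 47.0 ± 2.46 FPKM in PGAM5 KD libraries (SD, n = 3 each), with a log2 fold change of -0.07 (limma adjusted p = 0.264). The ratio of Slc7a11 to Slc3a2 went from 0.213 ± 0.00819 to 0.118 ± 0.00453 (SD, n = 3 each), a log2 difference of -0.86 (standard error 0.05), again without overlap and with the smallest exact p of 0.1. Taken from log2(FPKM + 1), the same difference was -0.75, and -0.54 on that scale after adjustment of the fold changes for GC content and exon length. Slc3a2 shares 202 bases at 87.6% identity with Dhx30, which was between 12.8 and 13.3 FPKM in Control and between 14.8 and 15.7 FPKM in PGAM5 KD libraries, and the summed fragments of Slc3a2 and Dhx30 differed by 0.06 on the log2 scale.

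Glutamate-cysteine ligase, the rate-limiting enzyme of glutathione synthesis, is a dimer of the catalytic subunit Gclc and the modifier subunit Gclm. Gclc (ENSMUSG00000032350, chromosome 9 from 77754535 to 77794485) was at 33.3, 34.6 and 33.5 FPKM in Control and at 21.3, 23.6 and 24.6 FPKM in PGAM5 KD libraries. It fell to 68.5% of Control, with a log2 fold change of -0.53 (95% confidence interval -0.66 to -0.40, limma adjusted p = 0.000679). Gclm (ENSMUSG00000028124, chromosome 3 from 122245557 to 122270732) was at 23.8, 24.6 and 24.0 FPKM in Control and at 19.2, 18.04 and 19.0 FPKM in PGAM5 KD libraries. Its fall was smaller, to 77.6% of Control, a log2 fold change of -0.35 (95% confidence interval -0.45 to -0.25, limma adjusted p = 0.00107). In neither gene did the groups overlap. The ratio of Gclc to Gclm was 1.40 in each of the 3 Control libraries and 1.11, 1.31 and 1.29 in the PGAM5 KD libraries. The ratio was therefore lower without overlap, by 0.18 on the log2 scale (standard error 0.07, exact p = 0.1), and PGAM5 KD replicate 1 gave the lowest value. Without that library the difference was -0.11. Gclm carries a stretch of 202 bases that is 87.1% identical to Cd300a, which was at 15.7, 14.2 and 15.1 FPKM in Control and at 9.64, 10.1 and 9.21 FPKM in PGAM5 KD libraries, and the part of shared fragments in the fall of Gclm was not tested. Gclm held between 66.2% and 73% of the fragments on itself and its 2 similar genes, and their sum differed by -0.46 on the log2 scale (standard error 0.01).

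Gsr (ENSMUSG00000031584, chromosome 8 from 33652523 to 33698163) encodes glutathione reductase, which restores oxidized glutathione with NADPH. Its values were 60.6, 65.6 and 59.5 FPKM in Control and 58.5, 62.6 and 58.3 FPKM in PGAM5 KD libraries. Libraries of the groups overlapped. The log2 fold change of -0.05 had an interval from -0.16 to 0.07 (limma adjusted p = 0.497).

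Of the 10 genes, the thioredoxin-related Txnrd1 and Srxn1 were both lower, while the wider thioredoxin list described below held calls in both directions. Txnrd1 (ENSMUSG00000020250, chromosome 10 from 82833951 to 82897712) encodes cytosolic thioredoxin reductase, the selenoenzyme that keeps thioredoxin reduced. It was at 105.6, 104.4 and 103.4 FPKM in Control and at 68.4, 68.0 and 68.3 FPKM in PGAM5 KD libraries, with at least 8748 fragments in each. No libraries of the groups overlapped, and the log2 fold change was -0.61 (95% confidence interval -0.67 to -0.54, limma adjusted p = 2.45e-05). Srxn1 (ENSMUSG00000032802, chromosome 2 from 152105516 to 152111376) encodes sulfiredoxin, which repairs overoxidized peroxiredoxins. It was at 30.7, 31.7 and 35.8 FPKM in Control and at 23.0, 24.9 and 24.1 FPKM in PGAM5 KD libraries. Control replicate 3 was the highest of its group, and the groups did not overlap (log2 fold change -0.43, 95% confidence interval -0.58 to -0.28, limma adjusted p = 0.00294). The ratio of Txnrd1 to Gsr, the reductases of the thioredoxin and the glutathione systems, fell from 1.69 ± 0.0856 to 1.14 ± 0.0492 (SD, n = 3 each), a log2 difference of -0.57 (standard error 0.06, exact p = 0.1).

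**Figure D2:**
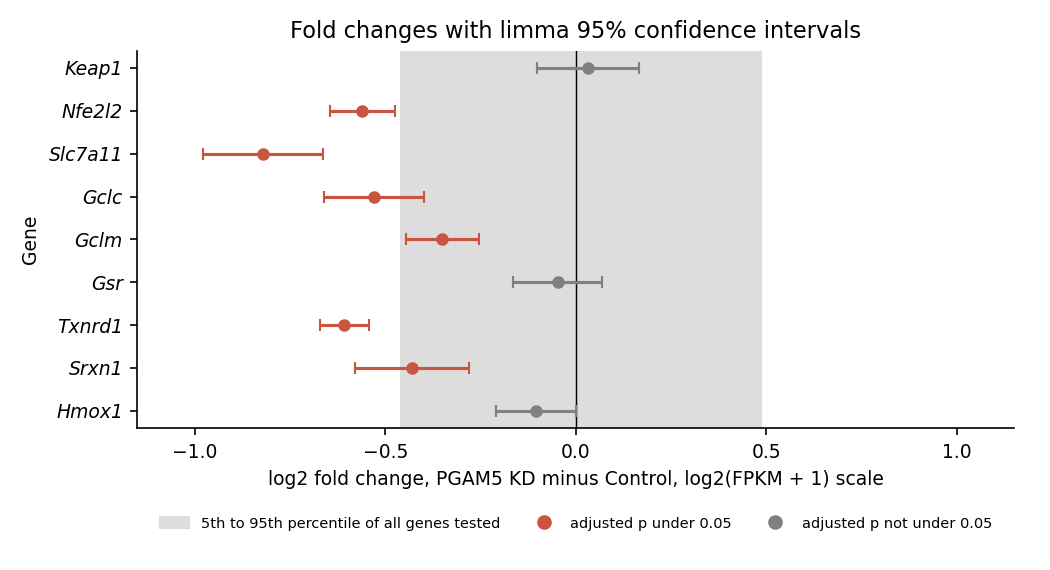
Log2 fold change of the 9 tested genes with limma's 95% confidence interval, on the log2(FPKM + 1) scale. Red genes passed an adjusted p-value of 0.05, grey genes did not, and the grey band spans the 5th to the 95th percentile of all genes tested (-0.46 to 0.49).

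Hmox1 and Nqo1, the most widely used readouts of NRF2 activity, stood at opposite ends of the expression range. Hmox1 (ENSMUSG00000005413, chromosome 8 from 75093621 to 75100589) encodes heme oxygenase 1, which breaks heme down to biliverdin, iron and carbon monoxide. It had the highest level of the 10 genes, 126.1, 119.4 and 117.5 FPKM in Control and 117.8, 107.6 and 112.3 FPKM in PGAM5 KD libraries. The highest PGAM5 KD library overlapped the lowest Control library. The log2 fold change of -0.10 had an interval from -0.21 to 0.00 (limma adjusted p = 0.12), and Hmox1 was called lower under 3 alternatives, at -0.18 on the TPM scale, at -0.18 after quantile normalization and at -0.22 after adjustment for GC content and length. The ratio of Hmox1 to Txnrd1, added after the values were seen, rose from 1.16 ± 0.0314 to 1.65 ± 0.0696 (SD, n = 3 each), a log2 difference of 0.51 (standard error 0.04, exact p = 0.1), or 0.50 from log2(FPKM + 1) and 0.33 on that scale after the GC and length adjustment.

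Nqo1 (ENSMUSG00000003849, minus strand of chromosome 8 from 107388225 to 107403206) encodes a quinone reductase that prevents redox cycling of quinones. It was at 1.06, 1.31 and 1.29 FPKM in Control and at 0.469, 0.248 and 0.0264 FPKM in PGAM5 KD libraries. These values rest on 30, 41 and 39 fragments in Control and on 16, 7 and 1 fragments in PGAM5 KD libraries, the lowest depth of the 10 genes. All PGAM5 KD libraries were below all Control libraries, as were those of 14.7% of all genes above 0, and the exact two-sided permutation test gave p = 0.1. Its mean over the 6 libraries was under the filter. Without the filter its log2 fold change was -0.84 (standard error 0.15, limma adjusted p = 0.0184), a scale on which low genes are compressed. A fit on the recovered fragments without filter (limma's voom, chosen after the data were seen) gave -2.91 (standard error 0.71, adjusted p = 0.00656). Without filter, 6.09% of all genes were called lower in the first fit and 8.98% in the second.

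The order of the 10 genes by level was nearly the same in the groups. Hmox1 was highest in both, followed by Txnrd1, Gsr and Nfe2l2, and Gclm, Keap1, Slc7a11 and Nqo1 were the lowest, in falling order. Gclc and Srxn1 shared the middle, and their libraries overlapped within each group, so the exchange of their places did not exceed the spread. Every other pair of neighbours in this order was separated in all 3 libraries of a group. Txnrd1 came closer to Gsr, from 104.4 against 61.9 FPKM in Control to 68.2 against 59.8 FPKM in PGAM5 KD cells.

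**Figure D3:**
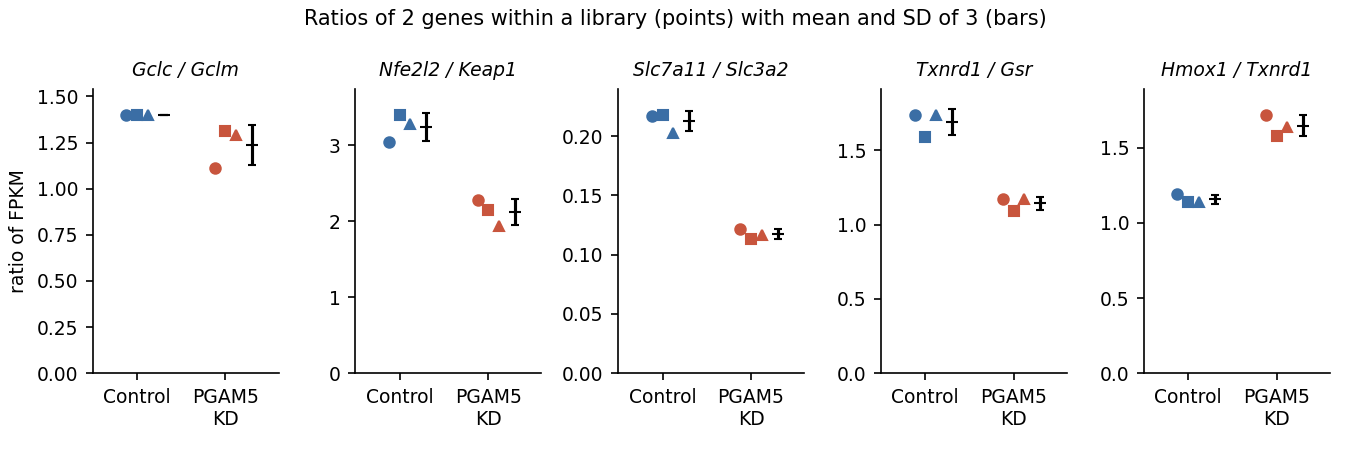
Ratios of FPKM of 2 genes within each library (points, linear axes from 0) for Control (blue) and PGAM5 KD (red), with mean and SD of 3 libraries as bars. The first 4 ratios were lower and that of Hmox1 to Txnrd1 was higher in PGAM5 KD cells, each without overlap. Apart from Gclc to Gclm, each ratio sets a called gene beside one not called, so it largely restates that gene's change. The share of other gene pairs that separate in this way was not computed.

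Other genes of the pathway were read from 6 lists written by role, which hold 93 genes besides the 10. Of these, 71 were tested, 19 were higher, 18 were lower and 34 did not pass. The counts of each list stand against 16.8% higher and 14.9% lower over all genes tested. Of the 6 lists, 5 held genes called in both directions, and that of partners and regulators held lower genes alone. Differences between lists were not tested.

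Among 14 partners and regulators of KEAP1 and NRF2, 10 were tested, 2 were lower and 0 were higher (median log2 fold change -0.05), and this 20% lower is near the share over all genes. Sqstm1 encodes p62, which holds KEAP1 away from NRF2 and is also an NRF2 target. It fell from 271 ± 5.66 to 172 ± 4.23 FPKM (SD, n = 3 each), a log2 fold change of -0.65 (limma adjusted p = 2.54e-05), and held at least 99.5% of the fragments on itself and Mrnip, which overlaps it. Mafg, a small MAF partner of NRF2, fell from 28.4 ± 0.499 to 22.2 ± 1.21 FPKM (log2 fold change -0.34, limma adjusted p = 0.00228), and shares 124 bases of exon with Sirt7. Bach1, the heme-regulated repressor of AREs, was at 6.30 ± 0.547 and 5.37 ± 0.497 FPKM and did not pass (log2 fold change -0.20, limma adjusted p = 0.123). Cul3, the scaffold of the ligase, was at 34.9 ± 1.5 and 35 ± 1.68 FPKM (log2 fold change 0.00, limma adjusted p = 0.953).

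The glutathione list held genes called in both directions. Of its 26 genes 16 were tested, 5 were higher and 5 were lower (median 0.15), and on the TPM scale, as after the GC and length adjustment, 3 were higher and 5 lower. The higher genes were Glrx, a glutaredoxin that reduces glutathionylated proteins (8.24 ± 0.657 to 15.7 ± 0.754 FPKM, log2 fold change 0.86, limma adjusted p = 0.00019), the microsomal enzymes Mgst3 (0.57) and Mgst2 (0.29), and the peroxidases Gpx4 (0.39), which reduces lipid peroxides, and Gpx1 (0.13). The lower genes were the transferase Gstm1 (8.55 ± 0.351 to 4.68 ± 0.824 FPKM, log2 fold change -0.76, limma adjusted p = 0.0022), the exporters Abcc1 (-0.37) and Abcc4 (-0.30), Esd (-0.32) and Gsto1 (-0.20). Gpx4 held between 80.8% and 85.9% of the fragments on itself and its copy Gpx4-ps2, and their sum differed by 0.37 on the log2 scale. Gss, which encodes glutathione synthetase and completes the synthesis that Gclc and Gclm begin, was at 4.5 ± 0.303 FPKM in Control and at 5.42 ± 0.691 FPKM in PGAM5 KD libraries (SD, n = 3 each). Its PGAM5 KD libraries were all above its Control libraries, but it did not pass (log2 fold change 0.22, limma adjusted p = 0.112).

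In the thioredoxin and peroxiredoxin list 16 of 17 genes were tested, 4 were higher and 1 was lower (median 0.00). This balance turned with the processing, to 2 higher and 4 lower on the TPM scale and to 3 higher and 4 lower after the GC and length adjustment. The peroxiredoxins Prdx5 (0.78), Prdx4 (0.22) and Prdx2 (0.21) and the thioredoxin inhibitor Txnip (0.21) were higher, and Msrb1 (-0.32), a methionine sulfoxide reductase, was lower. Prdx5 overlaps Trmt112 on the other strand, and the summed fragments of this pair differed by 0.47. Prdx2 shares 173 bases of exon with Junb, which was between 101.7 and 107.3 FPKM in Control and between 139 and 151.9 FPKM in PGAM5 KD libraries, and 177 bases with Rnaseh2a, and the part of shared fragments in its change was not tested. Thioredoxin itself, Txn1, was at 336 ± 4.63 FPKM in Control and at 316 ± 14.1 FPKM in PGAM5 KD libraries and did not pass (log2 fold change -0.09, limma adjusted p = 0.118), although its PGAM5 KD libraries were all below its Control libraries.

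In the heme and ferritin list 7 of 8 genes were tested, 5 were lower and 2 were higher (median -0.22), so that 71.4% were lower against 14.9% of all genes tested. The ferritin chains Fth1 (6322 ± 38.1 to 5050 ± 160 FPKM, log2 fold change -0.32, limma adjusted p = 0.000376) and Ftl1 (-0.32), which store iron, fell together with the heme transporter Slc48a1 (-0.42), the biliverdin reductase Blvrb (-0.22) and the heme-making enzyme Fech (-0.22). Blvra (0.24) and Hmox2 (0.45), the constitutive heme oxygenase, rose. The call of Fech is uncertain, because 408 genes resemble a part of its transcript, and Hmox2 overlaps Cdip1, their summed fragments differing by 0.11. Ftl1 held between 91.6% and 94.2% of the fragments on itself and 19 similar genes. Without the filter on low values, 1 gene was lower and 1 higher. The counts also depended on single libraries. No fit with 1 library left out kept 5 lower genes, the range being 2 to 4, with 2 lower genes without Control replicate 1 and 2 without Control replicate 3, and 1 higher gene without any 1 of Control replicates 1, 2 and 3 and PGAM5 KD replicates 2 and 3.

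All 6 genes of the NADPH list were tested, and 2 were higher and 2 lower (median 0.04), against 1 higher and 2 lower on the TPM scale and 2 higher and 1 lower after the GC and length adjustment. The malic enzyme Me1 (52.2 ± 1.62 to 75 ± 2.28 FPKM, log2 fold change 0.51, limma adjusted p = 0.00017) and Idh1 (0.16) were higher, and the pentose phosphate enzymes G6pdx (-0.15) and Pgd (-0.15) were lower. G6pdx shares 418 bases of exon with Ikbkg on the other strand. In the drug and aldehyde metabolism list 16 of 22 genes were tested, 6 were higher and 3 were lower (median 0.18). Cat, which encodes the peroxide-degrading catalase, had the largest fall among the called genes of this list (48.4 ± 1.38 to 30.8 ± 1.35 FPKM, log2 fold change -0.64, limma adjusted p = 0.000117), followed by Cbr3 (-0.45) and Akr1b8 (-0.24). Without PGAM5 KD replicate 3 the list had 1 lower gene. The 5 largest log2 fold changes among the 6 genes called higher were those of the epoxide hydrolase Ephx1 (0.68), the scavenger receptor Cd36 (0.31), the reductases Cbr1 (0.28) and Nqo2 (0.28), and Akr1a1 (0.15). Nqo2 overlaps Serpinb6a, and at most 23.4% of the fragments on the pair were on Nqo2. Cbr1 held between 73.3% and 87.1% and Akr1b8 between 91% and 94.7% of the fragments on themselves and the genes that resemble them, and the summed fragments differed by 0.14 for Cbr1 and by -0.20 for Akr1b8 on the log2 scale.

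**Figure D4:**
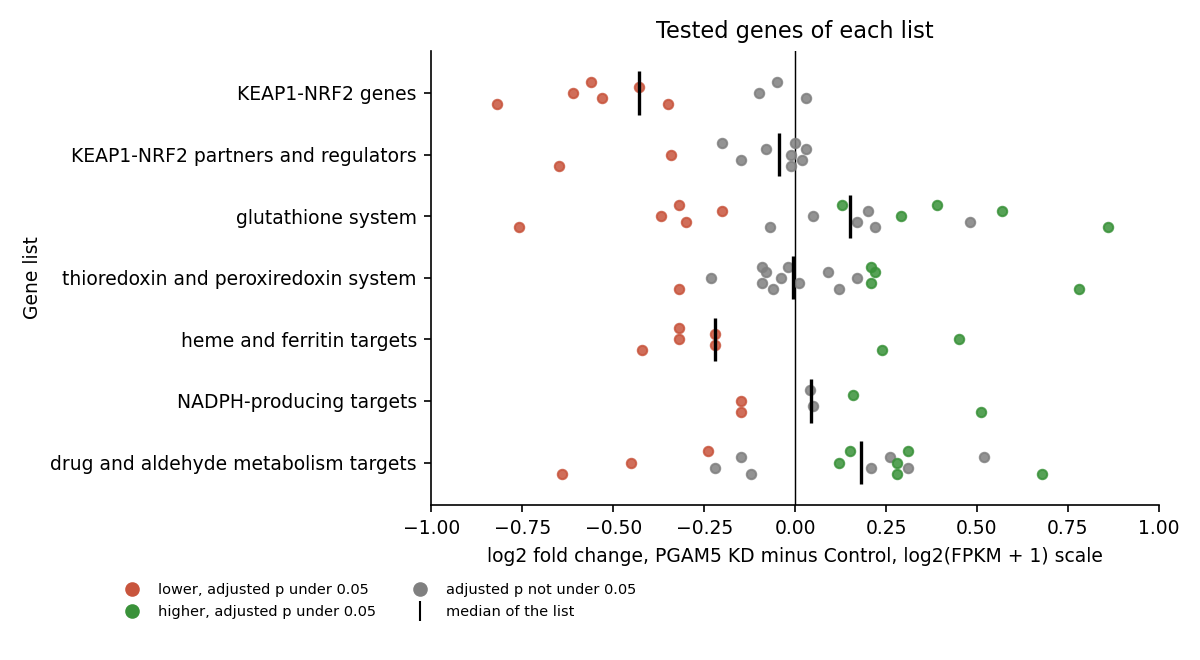
Log2 fold change of each tested gene (points; height within a row has no meaning) in the 10-gene set and in 6 pathway lists, with a bar at the median of each list. Genes with an adjusted p-value under 0.05 are red where lower and green where higher, with 6 red of 9 in the top row and both colours in the 5 lower rows.

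The 6 lowered genes were also compared under every processing alternative run, namely other scalings, pseudocounts, filters and fits and each library left out in turn. Their log2 fold changes stayed below 0 with an adjusted p-value under 0.05 in each. Across the alternatives that keep all libraries, Nfe2l2 ranged from -0.65 to -0.55, Txnrd1 from -0.69 to -0.55, Gclc from -0.62 to -0.52, Srxn1 from -0.52 to -0.42, Gclm from -0.44 to -0.28 and Slc7a11 from -0.97 to -0.65. With 1 library left out, the number of the 9 genes called lower was 6 each time, while the number of all genes called lower ranged from 1129 to 1361.

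**Figure D5:**
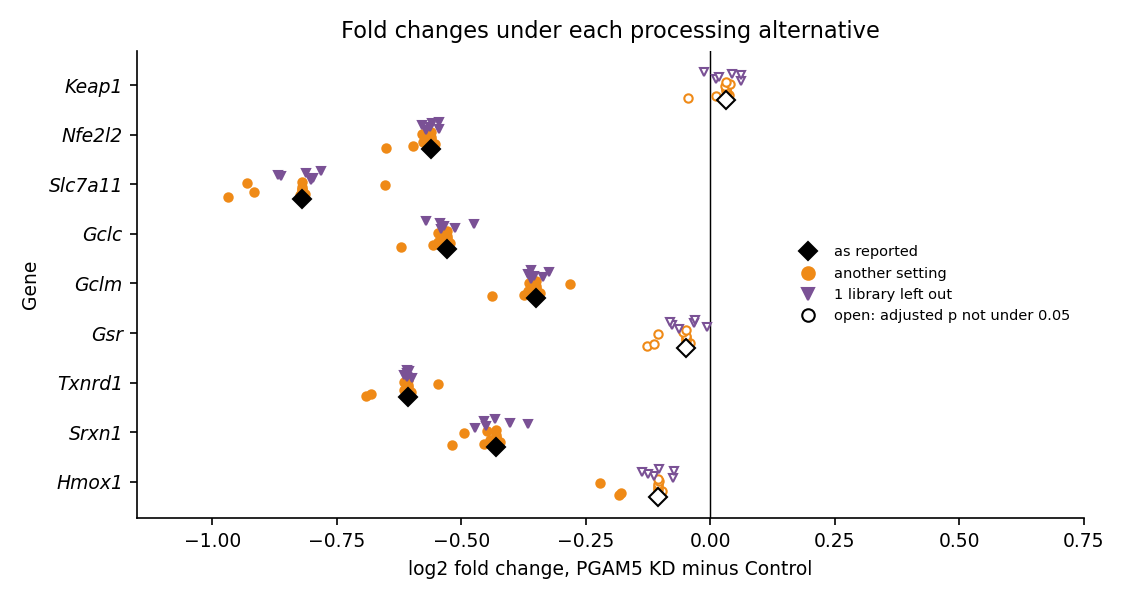
Log2 fold change of the 9 tested genes as reported (black diamonds), under other settings with all 6 libraries (orange circles) and with 1 library left out (purple triangles); open symbols have an adjusted p-value not under 0.05. Nfe2l2, Slc7a11, Gclc, Gclm, Txnrd1 and Srxn1 stay filled and left of 0, and Hmox1 is filled in 3 settings.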

How the data were processed

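The authors deposited FPKM for each library, 1 table per library with Ensembl gene identifiers. The submitters' processing notes name HISAT2 2.0.5, featureCounts 1.5.0-p3 and mm10. Their options, the annotation and the strand setting are not given in the sources used here, so overlapping and antisense genes are uncertain. Names, coordinates and exons came from GENCODE M21 (GRCm38), which holds 54495 of the identifiers, 37 being unmatched. Depth was recovered from the step in FPKM that 1 fragment is worth at a given exon length, with 96.8% to 97.1% of values under 1000 fragments whole within 0.01.

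The deposited FPKM were tested as log2(FPKM + 1) with limma 3.58.1 in R 4.3.3 (lmFit, eBayes with trend, two-sided, Benjamini-Hochberg) for the 10540 genes with a mean of at least 1 FPKM. An adjusted p-value under 0.05 was the threshold. The fit was also run on simulated fragments with the same dispersion for every gene, a setting simpler than these data. No support for the calls is drawn from it. Replicates of a group differed by more than sampling noise (chi-square per degree of freedom 5.08 to 9.02), so no library was a second deposit of another. Differences in library preparation alone can give this, and it says nothing of separate cultures. Genes resembling a named gene were found with blastn 2.17.0 (minimum 85% identical, minimum length 200 bases). Promoter windows are RefSeq's for GRCm38.p6. Python 3.11.15, pandas 2.3.3, scipy 1.17.1 and matplotlib 3.10.9 were used.

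Named genes are the 10 genes, Pgam5, at most 5 called genes per list and direction, Slc3a2, Bach1, Mafg, Cul3 and Sqstm1, and genes that could share reads with these. Txn1, Gss and the macrophage markers were named after their values were seen. The members and lists were chosen with earlier results of these data known. Alternatives were TPM scaling, quantile normalization, median centring, a pseudocount of 0.1, no filter, a mean of at least 5 FPKM, no trend, a correction for GC content and length, voom on recovered fragments, a replicate block, and each library left out.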

Additional observations from a re-analysis of the deposited data

How the results depend on the processing

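TPM scaling lowered the genes called higher from 1771 to 1088. Keap1, not called, changed sign on that scale (-0.044) and without PGAM5 KD replicate 3 (-0.012). Hmox1 passed on the TPM scale (-0.18, limma adjusted p = 0.0281), after quantile normalization (-0.18, limma adjusted p = 0.0238) and after the GC and length correction (-0.22, limma adjusted p = 0.0141). The log2 ratio of Slc7a11 to Slc3a2 was -0.75 with a pseudocount of 1 and, on that scale, -0.54 after the GC and length correction. The correction gave -0.44 for Txnrd1 to Gsr (-0.56 with the pseudocount alone) and 0.33 for Hmox1 to Txnrd1 (0.50 with the pseudocount alone). The cause was not tested.

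Counts in the lists moved as follows. On the TPM scale, 3 glutathione, 2 thioredoxin, 1 heme and 1 NADPH gene were higher and 4 thioredoxin genes were lower. After the GC and length correction, 3 glutathione and 1 heme gene were higher, and 4 thioredoxin and 1 NADPH gene were lower. Quantile normalization gave 3 lower thioredoxin genes and 1 higher NADPH gene, voom 3 lower thioredoxin genes and a mean of at least 5 FPKM 2. Without filter, 1 heme gene was higher and 1 lower.

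With 1 library left out, which leaves 1 group with 2 libraries while limma pools the spread, genes higher ranged from 1211 to 1497 and genes lower from 1129 to 1361. Thioredoxin genes lower ranged from 1 to 2 (2 without Control replicate 1), heme genes higher from 1 to 2, heme genes lower from 2 to 4, and drug metabolism genes lower from 1 to 3. Log2 fold changes ranged from -0.012 to 0.062 for Keap1, -0.14 to -0.07 for Hmox1, -0.58 to -0.54 for Nfe2l2, -0.57 to -0.47 for Gclc, -0.37 to -0.32 for Gclm, -0.61 to -0.60 for Txnrd1, -0.47 to -0.36 for Srxn1, -0.87 to -0.78 for Slc7a11 and -0.08 to -0.01 for Gsr. The ratio of Gclc to Gclm ranged from -0.22 to -0.11.

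Whether the replicate numbers shared by the groups pair the libraries is not given in the sources used here. Deviations from the group means correlated at -0.0197, 0.0161 and -0.0516 for same-numbered libraries and between -0.063 and 0.0814 for the others. Such values show no shared effect of a replicate number, but they cannot exclude that libraries were prepared in pairs. A fit with the replicate number as a block gave 1440 genes higher and 1212 lower, 2 lower thioredoxin genes and 3 lower heme genes, and changed no call among the 9 tested genes. Depth limits Nqo1, which was counted on 1 to 41 fragments per library.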
